A study of Mus musculus with 9 samples.

Results

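The SLAM family receptors were followed in RAW264.7 cells through the 7 members named Slamf1, Slamf7, Slamf8, Slamf9, Cd84, Cd48 and Ly9, which were chosen by family membership and not by their values. All 7 had a row of their own among the 23282 gene rows measured. RAW264.7 is a transformed macrophage line from the BALB/c mouse that forms osteoclasts when given RANKL, the cytokine of osteoclast differentiation. Each group had 3 libraries. The negative control received RANKL alone at 50 ng/mL. Surface protein-treated cells received the same RANKL dose together with 10 µg/mL of surface proteins of Propionibacterium freudenreichii MJ2, a bacterium isolated from raw milk. The third group was given 10000000 heat-killed MJ2 cells per mL, and the labels do not say library by library that RANKL was added to it. All cells were collected on day 4. The groups thus come from 1 cell line of unsorted cells, and a lower level of a transcript can mean fewer cells that carry it or less of it per cell, which cannot be told apart here.

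SLAM family members are receptors of the immunoglobulin superfamily on blood cells, and most of them bind another copy of themselves on a neighboring cell. Cd48 is held in the membrane by a lipid anchor and instead serves as the ligand of Cd244 and Cd2. The cytoplasmic tails of most members carry tyrosine motifs that recruit the small adaptor SAP and its relatives, which couple the receptors to kinases of the Src family such as Fyn, or, without the adaptors, phosphatases. Slamf8 and Slamf9 have short tails without these motifs. In macrophages, Slamf7 takes part in phagocytosis together with the integrin of Itgam, Slamf1 acts at the phagosome with the Beclin 1 complex, and Slamf8 is known as a brake on the phagocyte NADPH oxidase.

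The members lie on chromosome 1 of the mouse genome (GRCm38.p6, mm10) in a pair of clusters. Ly9 (chr1:171588613-171607410, minus strand), Slamf7 (chr1:171632403-171653037, minus strand), Cd48 (chr1:171681245-171705258, plus strand), Slamf1 (chr1:171767131-171801184, plus strand) and Cd84 (chr1:171839697-171890718, plus strand) fall within 302106 bases. Slamf9 (chr1:172458569-172478421, plus strand) and Slamf8 (chr1:172581377-172590873, minus strand) fall within 132305 bases further along. The first cluster held 3 of the members whose levels are described below as higher after surface proteins and also Cd84, which was lower. Of the 8 other genes annotated inside the second cluster, 5 had a row in the data, 1 had enough reads to test, and none was called. That gene, Tagln2, which encodes an actin-binding protein, differed by -0.59 on the log2 scale with surface proteins relative to the control (adjusted p = 0.115). None of the 6 other genes inside the first cluster had a row. The long noncoding RNA Gm51686 is annotated across part of Cd84, and whether reads were counted by strand is not given in the sources used here.

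The start regions of the 4 members with an entry whose libraries did not overlap between surface proteins and RANKL alone, from 250 bases before to 50 bases after the annotated start, are printed from RefSeq's table (GRCm38.p6), 5′ to 3′ on the gene's strand. Capitals mark matches to AP-1 (TGANTCA), PU.1 (GAGGAAGT) or a loose NF-kB pattern. The NF-kB pattern fixes only the outer G and C bases, so a match need not meet the full NF-kB consensus. All were searched on both strands, together with the GAS element (TTCNNNGAA) and the interferon response element ISRE. The windows were chr1:171648950-171649249 for Slamf7, chr1:172475110-172475409 for Slamf9, chr1:171681742-171682041 for Cd48 and chr1:171839447-171839746 for Cd84. For Slamf7, Slamf9 and Cd48 the start used lies inside the gene span given above, not at its outer end. Which transcript that start belongs to is not given here, and positions below count from the start used.
Slamf7: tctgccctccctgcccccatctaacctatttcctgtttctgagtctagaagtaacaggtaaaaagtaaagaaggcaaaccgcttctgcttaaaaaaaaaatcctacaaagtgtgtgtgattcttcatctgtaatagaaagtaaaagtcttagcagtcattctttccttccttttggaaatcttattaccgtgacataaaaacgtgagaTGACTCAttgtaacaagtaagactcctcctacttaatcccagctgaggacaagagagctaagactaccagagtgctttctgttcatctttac
Slamf9: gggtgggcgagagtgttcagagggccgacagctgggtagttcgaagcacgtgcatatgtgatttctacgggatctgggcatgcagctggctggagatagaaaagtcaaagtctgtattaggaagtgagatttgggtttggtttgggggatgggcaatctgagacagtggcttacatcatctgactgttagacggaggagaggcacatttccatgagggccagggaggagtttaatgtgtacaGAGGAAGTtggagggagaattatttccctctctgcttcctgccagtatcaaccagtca
Cd48: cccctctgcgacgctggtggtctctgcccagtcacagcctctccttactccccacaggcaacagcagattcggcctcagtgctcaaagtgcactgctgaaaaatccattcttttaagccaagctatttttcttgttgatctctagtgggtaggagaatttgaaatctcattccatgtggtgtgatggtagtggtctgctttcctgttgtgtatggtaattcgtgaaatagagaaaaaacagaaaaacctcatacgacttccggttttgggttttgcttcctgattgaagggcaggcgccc
Cd84: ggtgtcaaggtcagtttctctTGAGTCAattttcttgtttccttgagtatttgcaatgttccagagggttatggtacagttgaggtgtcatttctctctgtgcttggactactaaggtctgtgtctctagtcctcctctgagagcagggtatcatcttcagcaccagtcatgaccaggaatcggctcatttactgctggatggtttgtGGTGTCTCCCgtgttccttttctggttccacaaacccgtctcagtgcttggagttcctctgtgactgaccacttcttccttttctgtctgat

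An AP-1 match began at position -42 from the start site in Slamf7 and at -229 in Cd84, and 7.81% of all 32851 start regions of this length hold one. A PU.1 match began at -8 in Slamf9, and 3.2% of all start regions hold one. Cd84 also held a match to the loose NF-kB pattern, on the opposite strand at -42, but 50.8% of all start regions do. Slamf8 held a match to the loose NF-kB pattern, to ISRE (3.44% of all start regions) and to AP-1. No match to any of these letters, GAS (8.3% of all start regions) included, was in the windows of Cd48 and Slamf1, and Ly9 had no entry. The matches describe letters in a window and were not tested for factor binding.

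Levels are given as adjusted reads, that is 2 raised to the deposited log2 value minus 1, which step in units of about 1 read. The kit used gives 1 read from the 3′ end of each transcript, so that levels can be set side by side between genes without dividing by length. Totals ranged from 5930926 to 6503682 adjusted reads per library. Where a library holds no read of a transcript, up to 3 could have been missed by chance, and values under 3 adjusted reads are read here as at or under that floor. All 7 general macrophage markers were detected in every library, with Cd68 between 3765 and 4955 adjusted reads. Summed over the list, the level was 15710 to 17410 in the negative control, 22850 to 23540 with heat-killed MJ2 and 18590 to 20210 with surface proteins. This sum was made up mainly of a few abundant markers. With surface proteins 4 of the 7 rose relative to RANKL alone, namely Adgre1 (3.81 on the log2 scale), Itgam (3.01), Lyz2 (2.48) and Cd14 (2.37), and Csf1r, the receptor for the macrophage growth factor, fell by 1.47, where 10.2% of all genes tested were called higher and 7.32% lower. With heat-killed MJ2 3 of the 7 rose, where 3.37% of all genes were called higher. The summed level of 8 osteoclast markers was 17070 to 28380, 12050 to 14040 and 4958 to 7349 in the same order. Of the 7 of them that could be tested, 5 fell with surface proteins, beside the 7.32% of all genes. Heat-killed MJ2 lowered 2 of the 7, beside 0.897% of all genes. Since SLAM receptors are best known from lymphocytes, the defining markers of T cells, B cells and natural killer cells were examined as well. All 5 T cell markers and all 4 natural killer cell markers were at or under the floor in all 9 libraries, as were 4 of 5 B cell markers, while Cd79b reached 10.7 and 4.29 adjusted reads in 2 surface protein libraries. Of the neutrophil markers, S100a9 was at or under the floor throughout, while S100a8 was listed at 0 to 0.11 adjusted reads in the control, 1899 to 2056 with heat-killed MJ2 and 113 to 209 with surface proteins. The 4 dendritic cell markers summed to 63.54 to 127.6 in the control, 46.4 to 55.92 with heat-killed MJ2 and 38.32 to 56.92 with surface proteins, with Flt3 at or under the floor and with surface proteins a difference of -2.03 on the log2 scale for Itgax (adjusted p = 0.0145), 0.34 for Xcr1 (adjusted p = 0.522) and -0.08 for Zbtb46 (adjusted p = 0.964). The part of these shifts in osteoclast and macrophage markers, S100a8 and Itgax in the values below was not tested.

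Summed over the 7 members, SLAM family transcripts came to 122.6, 127.4 and 148.3 adjusted reads with RANKL alone, 191.3, 226.1 and 333.7 with heat-killed MJ2, and 933.8, 1036 and 1614 with surface proteins, each written from the lowest library to the highest. The 3 groups did not overlap in this sum. Its make-up also differed. Ly9 gave 57.3 to 75.6% of the sum in the negative control and Cd84 20.6 to 30.7%. In surface protein-treated cells, Ly9 gave 47.3 to 53.6% and Slamf7 35.8 to 45.5%, while Cd84 was down to 0.73 to 1.49%. Heat-killed MJ2 left Ly9 as the main member, at 55.9 to 74.2%, and the share of Slamf7 varied from 1.82 to 23.2%.

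**Figure D1:**
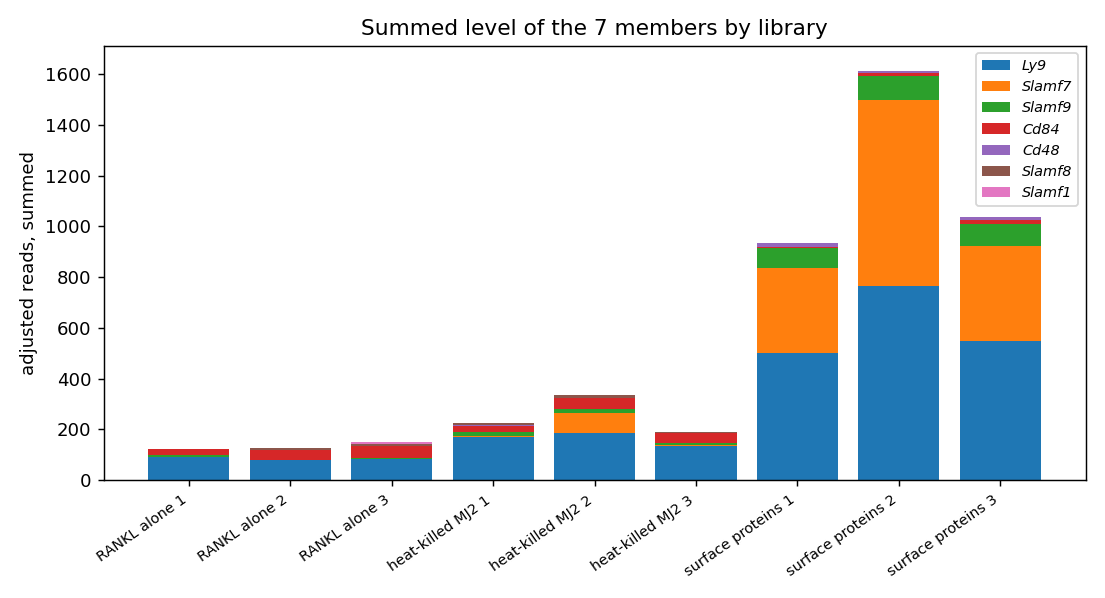
Stacked bars of the adjusted reads of the 7 SLAM family members in each of the 9 libraries (vertical axis, linear from 0), ordered as RANKL alone, heat-killed MJ2 and surface proteins. The 3 surface protein bars reach 933.8 to 1614, all above the other 6 bars, and consist mainly of Ly9 and Slamf7.

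Surface protein-treated cells were compared with the negative control to ask which members differ when surface proteins are added to RANKL. Slamf7, Ly9, Slamf9 and Cd48 were higher in all 3 surface protein libraries than in any control library, and Cd84 was lower. Slamf8 and Slamf1 stayed near the floor with overlapping groups. The libraries thus did not overlap for 5 of the 7 members, against 37.2% of the 15503 genes with a value above 0 in any library. A gene was called when the adjusted p was under 0.05 and the fold change at least 2. With no filter on low values, 5 of 7 members were called, against 11.4% of all genes. With the filter, which asked for 3 of the 6 libraries to reach 10 adjusted reads, 4 members could be tested, of which 3 were called higher (10.2% of all genes tested were) and 1 lower (7.32% of all genes tested). Slamf7 and Slamf9 passed that filter only through the surface protein libraries and Cd84 only with the control libraries, in each case where they were high, so the counts after filtering describe which members could be tested and nothing more.

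Slamf7, the receptor linked to phagocytosis and plasma cells, showed the largest difference of the family. It was listed at 0, 0.106 and 0 adjusted reads with RANKL alone and at 335, 734 and 371 with surface proteins. Every control library was thus at or under the floor and every surface protein library was far above it. Against that floor, counted per library, Slamf7 was at least 160-fold higher. The fitted difference was 8.77 ± 0.31 on the log2 scale (SE, n = 3 per group, 95% confidence interval 8.02 to 9.52, adjusted p = 6.18e-05), and its size moved from 7.80 to 11.79 with the constant added before the logarithm. With no filter, the adjusted p was 9.22e-04. The call was kept in the 17 settings in which Slamf7 was tested, and it was not tested where 10 adjusted reads were required in every library.

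Ly9, a receptor that binds itself between cells and is also known as Slamf3, was the most abundant member in all 3 groups. It measured 92.7, 79.9 and 85.0 adjusted reads with RANKL alone and 500, 763 and 550 with surface proteins. The control libraries lay close together and far below the lowest surface protein library. Ly9 was 7.04 times as high in mean adjusted reads, and its log2 difference was 2.78 ± 0.20 (SE, n = 3 per group, adjusted p = 5.76e-04). It kept the call under all 18 settings, with differences between 2.60 and 2.90, and it was the 1 member that passed the filter within each group alone.

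Slamf9, a short-tailed member found on macrophages and dendritic cells, was listed at 4.59, 0.0943 and 3.94 adjusted reads in the negative control. With surface proteins it reached 78.3, 96.2 and 89.6. The surface protein libraries varied little, and the control libraries were within a few reads of the floor. The difference was 4.83 ± 0.62 on the log2 scale (SE, n = 3 per group, 95% confidence interval 3.34 to 6.33, adjusted p = 0.0034), and with no filter the adjusted p was 0.0142. The 17 settings in which Slamf9 was tested kept the call, with differences from 4.08, without control replicate 2, to 5.83, with the smaller constant before the logarithm.

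Cd48, the lipid-anchored ligand, had 0, 0.0403 and 0 adjusted reads with RANKL alone and 13.8, 4.81 and 10.7 with surface proteins. It too was at or under the floor in every control library and above it in every surface protein library, but with so few reads that it did not pass the filter. Against the floor, Cd48 was at least 3.26-fold higher. With no filter, the log2 difference was 3.31 ± 0.37 (SE, n = 3 per group, adjusted p = 0.00826).

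Cd84, a self-binding receptor of myeloid cells, platelets and lymphocytes, moved in the other direction. It measured 25.3, 38.7 and 45.5 adjusted reads with RANKL alone and 6.82, 12.4 and 15.5 with surface proteins. The highest surface protein library was below the lowest control library. Cd84 fell by 1.60 on the log2 scale (SE 0.34, n = 3 per group, adjusted p = 0.0178, or 0.0437 with no filter), and the control mean was 3.16 times the surface protein mean. The call was lost without control replicate 2 (adjusted p = 0.0521) and without control replicate 3 (adjusted p = 0.056), with the direction kept.

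Slamf8, the short-tailed member tied to the NADPH oxidase, had 0, 8.56 and 7.91 adjusted reads with RANKL alone and 0, 3.82 and 0.0636 with surface proteins. The groups overlapped and the difference of -1.35 ± 1.17 (SE, n = 3 per group, adjusted p = 0.48, no filter) had a 95% confidence interval from -4.35 to 1.64. Slamf1, the founding member of the family and a sensor of bacteria in phagosomes, had 5.96 adjusted reads in control replicate 3 and at most 0.014 in any other library with surface proteins or RANKL alone. No difference was called in either gene, each with few reads and a wide spread between the control libraries. An exact two-sided permutation test of 3 libraries against 3 cannot give a p under 0.1, and it gave 0.1 for each of the 5 members whose groups did not overlap.

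**Figure D2:**
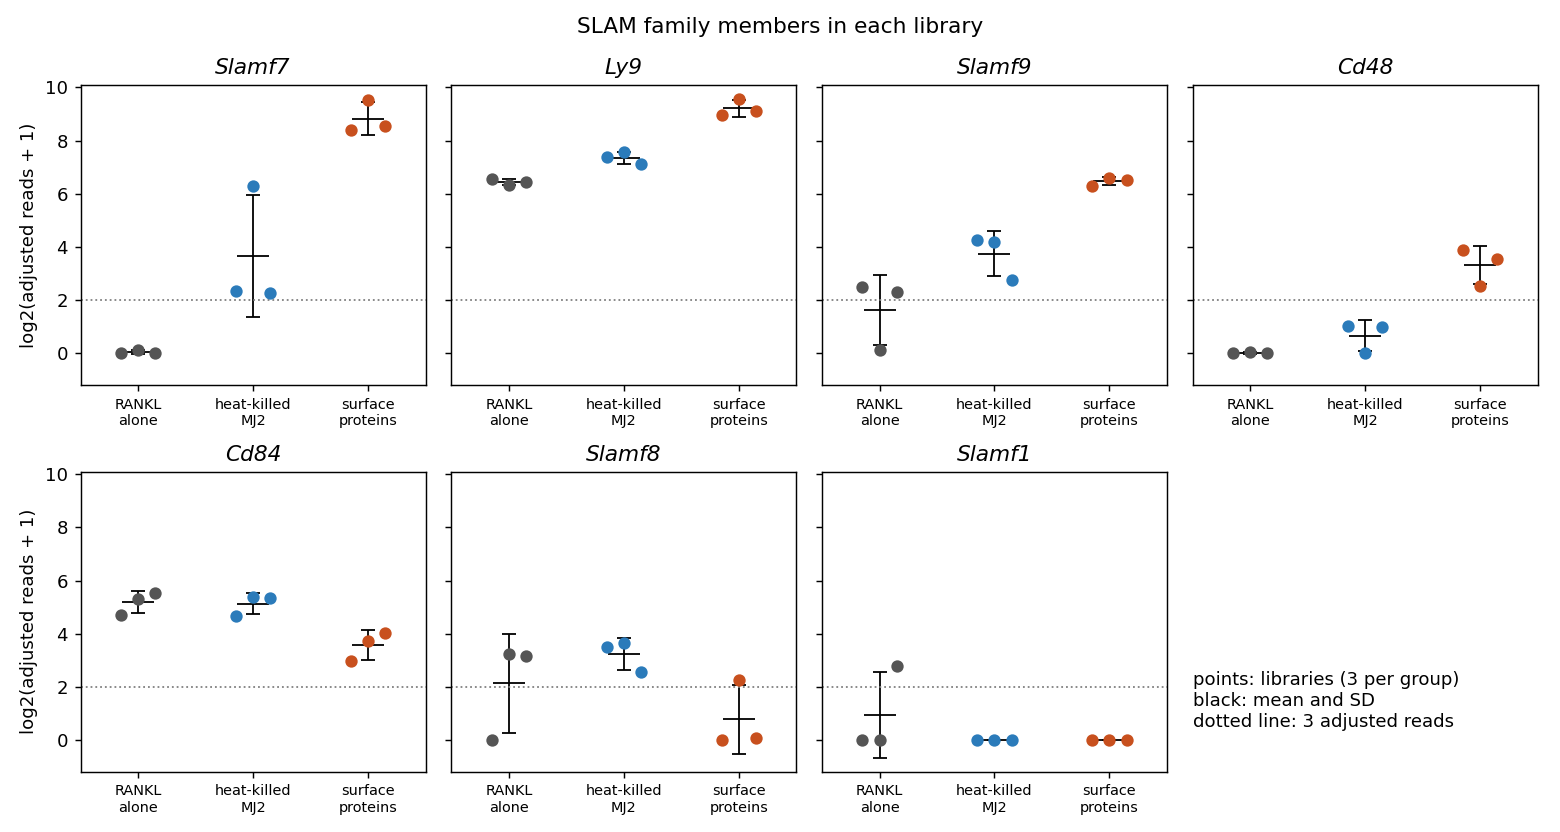
Level of each SLAM family member in each library (points, log2 of adjusted reads + 1) with the mean and SD of the 3 libraries of a group (black), and the floor of 3 adjusted reads (dotted). Slamf7, Ly9, Slamf9 and Cd48 have all 3 surface protein points above every other point, whereas Cd84 has them below.

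Heat-killed MJ2 was compared with the same 3 control libraries, which the comparison above also uses. The values of Slamf7, Slamf9 and Ly9 lay above every control library, and those of the other 4 members overlapped with the control. This made 3 of 7 members without overlap, against 23.1% of all genes with a value. Only Ly9 and Cd84 passed the filter on low values, and neither was called (3.37% of all genes tested were called higher and 0.897% lower). With no filter limma called 0 of 7 members, against 1.72% of all genes, and 2 of 7 had an unadjusted p under 0.05, as did 2863 of all 15503 genes.

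Ly9 measured 168, 187 and 136 adjusted reads with heat-killed MJ2, above the 79.9 to 92.7 of the control. Its mean was 1.91 times the control mean, and the log2 difference of 0.91 ± 0.16 (SE, n = 3 per group, 95% confidence interval 0.52 to 1.31, adjusted p = 0.0323) passed the p threshold but not the fold threshold. It missed the p threshold when any single library was left out (adjusted p between 0.0514 and 0.115) and with no filter (adjusted p = 0.0539). Slamf7 had 4.13, 77.4 and 3.89 adjusted reads, so that 1 library stood far above the other two, which were a read or so over the floor. Against the floor the mean was at least 9.49-fold higher than in the control, and the fitted difference of 3.60 ± 1.20 had an adjusted p of 0.212 with no filter. That mean rests largely on heat-killed MJ2 replicate 2.

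Slamf9 had 18.4, 17.4 and 5.86 adjusted reads with heat-killed MJ2, all above the highest control value of 4.59. Its log2 difference was 2.11 ± 0.82 (SE, n = 3 per group, adjusted p = 0.273, no filter). Cd84 stood at 24.6, 40.7 and 39.3 adjusted reads, within the range of the control apart from the lowest, which was just under it. Its difference of -0.06 ± 0.29 had a 95% confidence interval from -0.76 to 0.64 (adjusted p = 0.928), and the sign changed when single libraries were left out. Slamf8 had 10.2, 11.7 and 4.9 adjusted reads and overlapped with the control. Cd48 and Slamf1 were at or under the floor in all 3 libraries.

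Surface proteins and heat-killed MJ2 were then set against each other, which compares both preparations of the same bacterium. As the labels do not give RANKL for each heat-killed MJ2 library, a difference in RANKL and one in the preparation cannot be told apart, which holds for heat-killed MJ2 against RANKL alone as well. All members other than Slamf1 had non-overlapping groups, that is 6 of 7 against 32.0% of all genes with a value, 4 of them higher with surface proteins and Cd84 and Slamf8 lower. Of the 4 members that passed the filter, Slamf7, Slamf9 and Ly9 were called higher (5.08% of all genes tested) and Cd84 lower (4.97% of all genes tested). Slamf7 and Slamf9 reached the filter only with the surface protein libraries and Cd84 only with the heat-killed MJ2 libraries, in each case the group where they were high, so these counts too say only which members could be tested. With no filter, 3 of 7 members were called, namely Ly9, Slamf9 and Cd48, against 4.72% of all genes. This comparison shares the surface protein libraries with the first.

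Ly9 was 3.69 times as high with surface proteins as with heat-killed MJ2, a log2 difference of 1.87 ± 0.22 (SE, n = 3 per group, adjusted p = 0.00769). Slamf9 was 6.34 times as high, with a difference of 2.72 ± 0.41 (adjusted p = 0.0137). Both kept their calls in every setting in which they were tested, which for Slamf9 leaves out the filter that asked for 10 adjusted reads in every library. For Slamf7 the ratio of means was 16.9 and the log2 difference 5.17 ± 1.10 (adjusted p = 0.0275). With no filter Slamf7 was not called (adjusted p = 0.0684), and with the filter the call depended on which libraries were used. Without heat-killed MJ2 replicate 2, the library with 77.4 adjusted reads, the difference was 6.49 (adjusted p = 0.00591), and when any other single library was left out it was 4.49 to 5.38 with adjusted p between 0.056 and 0.0901.

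Cd84 was lower with surface proteins than with heat-killed MJ2 by a log2 difference of -1.54 ± 0.33 (SE, n = 3 per group, adjusted p = 0.029). With no filter Cd84 was not called (adjusted p = 0.0658). With the filter, the call was also lost without any one of the heat-killed MJ2 replicates 1, 2 and 3 (adjusted p = 0.0591, 0.0658 and 0.0953) and without surface protein replicate 2 (adjusted p = 0.0736). Cd48 was higher by 2.66 ± 0.47 with no filter (adjusted p = 0.042). Slamf8, at 4.9 to 11.7 adjusted reads with heat-killed MJ2 and at most 3.82 with surface proteins, had a difference of -2.45 ± 0.73 with no filter that was not called (adjusted p = 0.11).

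**Figure D3:**
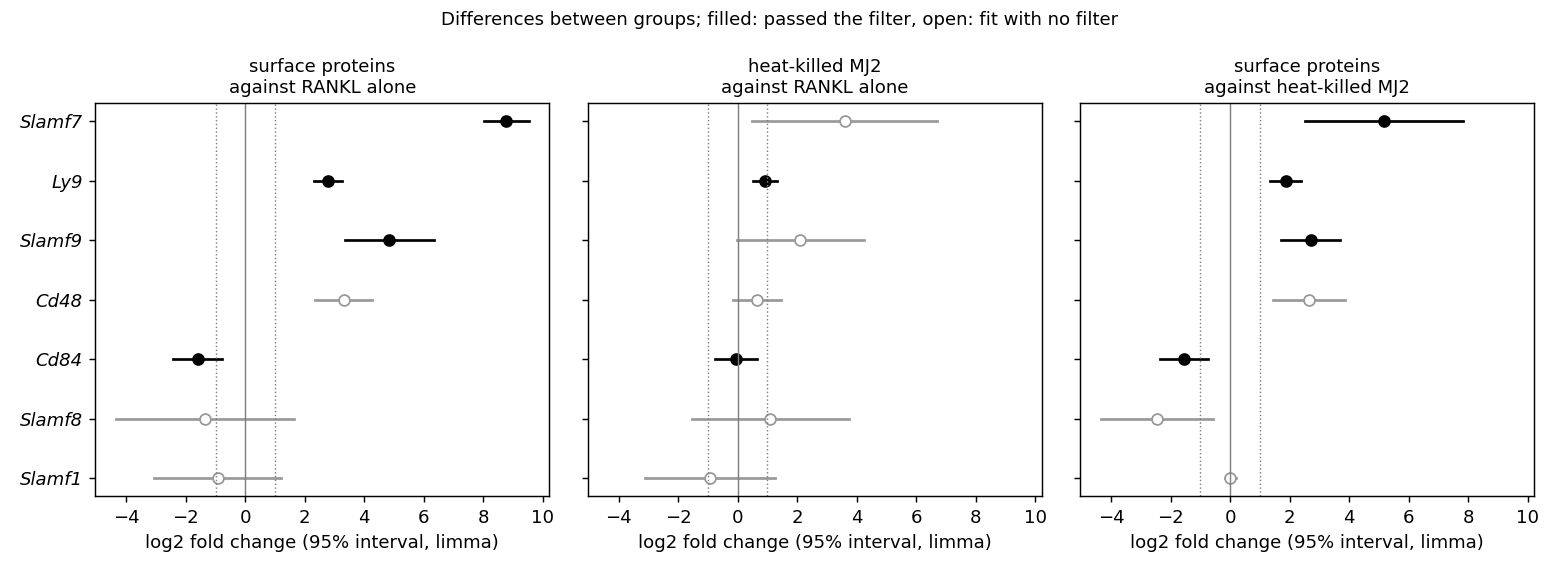
Log2 differences of the 7 SLAM family members with 95% confidence intervals (bars), with 1 panel for each of the 3 comparisons. Filled points passed the filter on low values, open points come from limma fits with no filter, and the dotted lines mark a fold change of 2. The difference with surface proteins is 8.77 for Slamf7 and -1.60 for Cd84.

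The order of the members also differed by group. In the negative control, Ly9 was above Cd84 in every library and Cd84 above the rest, while Slamf8, Slamf9 and Slamf1 overlapped and Slamf7 and Cd48 were at or under the floor. With heat-killed MJ2, Ly9 was again highest without overlap. Cd84 lay above Slamf9 and Slamf8 without overlap, Slamf9 and Slamf8 overlapped, and the range of Slamf7 spanned that of Cd84 because of replicate 2 alone. With surface proteins, Ly9 and Slamf7 had overlapping ranges at the top although Ly9 was the higher of the pair within each of the 3 libraries. Slamf9 came next without overlap with any other member, and Cd84 and Cd48 overlapped below it. Within the surface protein group, replicate 2 held the highest values of Slamf7, Ly9 and Slamf9 and the lowest of Cd48.

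The genes that these receptors are known to work with were taken as lists, 34 genes in all, of which 28 could be tested. With surface proteins against the negative control, 5 of the 28 rose and 1 fell, where 10.2% of all genes tested were called higher and 7.32% lower, and the median log2 difference was 0.05 beside -0.01 over all genes tested. With heat-killed MJ2, 2 of the 28 rose and none fell, where 3.37% of all genes were called higher and 0.897% lower. The adaptors Sh2d1a, Sh2d1b1 and Sh2d1b2, which encode SAP and its relatives, were listed at 0 in all 9 libraries, and so were the remaining receptors Slamf6 and Cd2. Cd244, the receptor for Cd48, reached at most 3.95 adjusted reads, in surface protein replicate 1.

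Of 6 Src family kinases, which act downstream of the receptors, 3 rose and 1 fell with surface proteins, beside the same 10.2% and 7.32% of all genes. Fyn, the kinase that SAP binds, measured 186, 165 and 183 adjusted reads with RANKL alone and 422, 534 and 534 with surface proteins, without overlap. Its log2 difference was 1.47 ± 0.16 (adjusted p = 0.00207) against the control and 1.22 against heat-killed MJ2 (adjusted p = 0.0124). Lyn and Fgr, kinases of myeloid cells, rose by 1.12 ± 0.15 (adjusted p = 0.00363) and 1.08 ± 0.29 (adjusted p = 0.0349). Src, which osteoclasts need to resorb bone, went from 256, 456 and 433 adjusted reads to 163, 134 and 191 and fell by 1.19 on the log2 scale (adjusted p = 0.0211). Lck, a kinase best known from T cells, had a difference of 3.14 ± 1.15 with surface proteins that was not called (adjusted p = 0.0863), with control replicate 2 at 0.0943 adjusted reads. Against heat-killed MJ2, surface proteins gave differences of 1.49 for Lck (adjusted p = 0.049) and -1.08 for Src (adjusted p = 0.0167), both called. With heat-killed MJ2 against RANKL alone none of the 6 was called, although Lyn had a difference of 0.68 (adjusted p = 0.0419). None of the 6 phosphatase and Csk genes and none of the 5 Beclin 1 complex genes was called in either comparison with the control. Over all genes tested, 10.2% were called higher and 7.32% lower with surface proteins, and 3.37% and 0.897% with heat-killed MJ2. Lists this short, the kinases with heat-killed MJ2 included, can hold none at such shares.

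Itgam, the integrin chain that works with Slamf7 in phagocytosis, was the 1 gene of 6 phagocytosis partners called in either comparison with the control. With surface proteins that share is near that of all genes (10.2% higher and 7.32% lower). With heat-killed MJ2 it stood beside smaller shares of all genes, 3.37% higher and 0.897% lower. Itgam measured 239, 259 and 212 adjusted reads with RANKL alone, 1082, 1347 and 998 with heat-killed MJ2 and 1743, 2152 and 1861 with surface proteins. The 3 groups did not overlap. The log2 difference from the control was 2.26 ± 0.17 with heat-killed MJ2 (adjusted p = 0.00164) and 3.01 ± 0.16 with surface proteins (adjusted p = 2.26e-04). Itgam is also a general marker of monocytes and macrophages.

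Of 5 NADPH oxidase genes, 1 was called, which with so few genes is likewise near the share of all genes with surface proteins (10.2% higher and 7.32% lower). With heat-killed MJ2 the same count stood beside smaller shares of all genes, 3.37% higher and 0.897% lower. Cybb, the catalytic subunit that Slamf8 is known to restrain, was called in both comparisons with the control. It had 822, 840 and 326 adjusted reads with RANKL alone, 3994, 5245 and 3813 with heat-killed MJ2, and 3662, 3620 and 3768 with surface proteins. Both treated groups were well above the control, with log2 differences of 2.82 ± 0.39 (adjusted p = 0.0159) and 2.60 ± 0.38 (adjusted p = 0.0051).

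**Figure D4:**
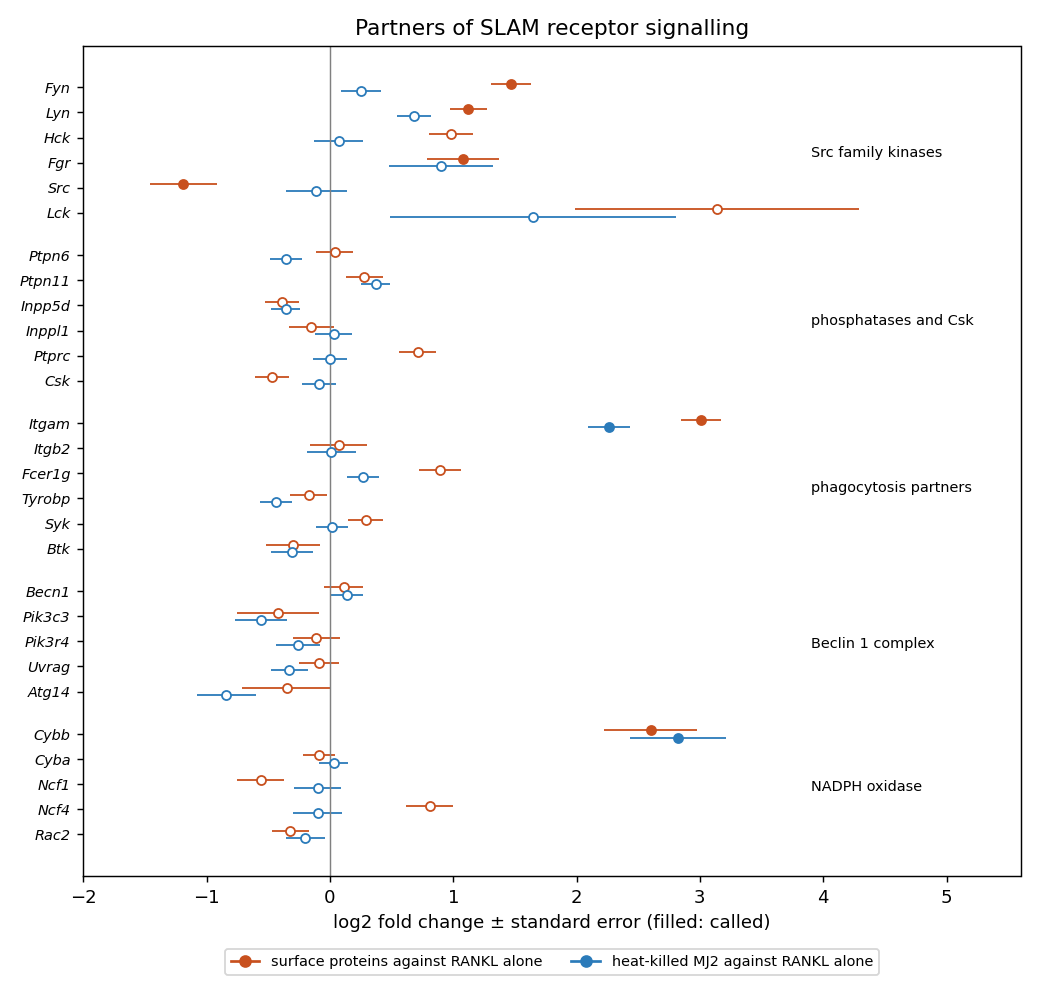
Log2 fold change with its standard error (horizontal axis) of the 28 partner genes that could be tested, by list, for surface proteins (orange) and heat-killed MJ2 (blue) relative to RANKL alone, with called genes filled. Itgam and Cybb are filled in both colors, whereas Fyn, Lyn, Fgr and Src are filled in orange and open in blue.

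The genes closest to the called members in pattern were sought among 11193 genes by the root mean square difference of log2 values over the 9 libraries, each gene centered on its own mean. For Ly9 they were Dst (0.19) and Ctse (0.20), and the mean log2 values of Dst were 7.36, 8.61 and 10.26 with RANKL alone, heat-killed MJ2 and surface proteins, beside 6.44, 7.35 and 9.22 for Ly9. For Cd84 they were Nfkbie (0.31) and Gm3448 (0.31). The levels of Slamf9 were followed most closely by Ms4a7 (0.79) and Ms4a6d (0.79). For Slamf7, which varied most between groups, they were Car6 (0.89) and Cox6a2 (1.08), and the mean log2 values of Car6 were 1.33, 5.05 and 10.75 beside 0.05, 3.65 and 8.82 for Slamf7. These values describe likeness over libraries that all genes share and carry no test.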

How the data were processed

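RNA of 9 libraries (3 groups of 3) was prepared by the authors with a 3′ mRNA kit. The submitters' processing notes name Bowtie2, bedtools and mm10, and the annotation and read assignment are not given in the sources used here. The authors deposited log2 values per gene, quantile normalized by their methods, although the sorted columns still differ by up to 1.6. Values were turned into adjusted reads as 2 to the value minus 1. Values above 0 but well under 1 read, which 3 libraries list for many genes, do not stand for reads.

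Genes that reached 10 adjusted reads in 3 or more libraries of a comparison were tested on the deposited log2 scale (constant 1) with limma 3.58.1 in R 4.3.3, two-sided, with p-values adjusted by Benjamini-Hochberg over all genes tested, and called where the adjusted p was under 0.05 and the groups differed 2-fold or more. The fit was tested on simulated data. Tables were made in Python 3.11.15. No source says that replicates were separate cultures, so p-values measure the spread between these libraries, which may be technical. Means carry the floor of 3 reads where a group had none above it, a floor that covers counting error only. The text names all 7 members, the partner genes called against the control, the 3 adaptors, called genes between the members on the chromosome, and the 2 nearest genes of each called member. The tested gene Tagln2, markers, Slamf6, Cd2, Cd244, Lck and Gm51686 were named after their values were seen. One partner gene is not reported here and was left out of the lists. The members and lists were chosen with earlier results of these data known. Alternatives were other scalings, constants, filters, thresholds, the replicate number as a block, a fit over all libraries and leaving out each library.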

Additional observations from a re-analysis of the deposited data

How the results depend on the processing

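Against RANKL alone, surface proteins gave 1901 called genes, 3163 with no limit on the fold change and 1490 to 1876 when single libraries were left out, and heat-killed MJ2 gave 461, against 267 with no filter on low values, 799 with unadjusted p-values and 189 to 334 without single libraries. Surface proteins against heat-killed MJ2 gave 1098, against 1949 with no limit on the fold change and 342 to 1167 without single libraries (342 without heat-killed MJ2 replicate 1, 424 without its replicate 3, 612 and 644 without surface protein replicates 2 and 3). The cause of these moves was not tested, beyond fewer libraries or a looser threshold.

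For the members against RANKL alone, leaving out single libraries gave log2 differences of -1.84 to -1.30 for Cd84 with surface proteins and, with heat-killed MJ2, -0.30 to 0.17 for Cd84, whose sign turned without control replicate 2 (0.00), control replicate 3 (0.11) or heat-killed MJ2 replicate 1 (0.17). Ly9 with heat-killed MJ2 (0.91) passes with no limit on the fold change. Between surface proteins and heat-killed MJ2 the ranges were 4.49 to 6.49 for Slamf7 and -1.77 to -1.24 for Cd84, and with no filter neither Slamf7 (5.17, adjusted p = 0.0684) nor Cd84 (-1.54, adjusted p = 0.0658) was called, with more genes tested. Slamf9 and Ly9 kept their calls with surface proteins in both comparisons under every alternative in which they were tested. With 10 adjusted reads required in every library, Slamf7, Slamf9 and Cd84 were not tested there.

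Libraries shared replicate numbers but nothing says that a number marks a batch. Their deviations from the group means correlated at 0.02 to 0.11 between same-numbered libraries and at -0.08 to 0.03 between the others. All 18 closest matches were of the same number, a hint from the data only. These matches are not independent, as deviations were centered within groups and each correlation was used repeatedly. With the replicate number as a block the counts of called genes were 1813, 289 and 980 in the order above. Ly9 with heat-killed MJ2 then had an adjusted p of 0.0878, and no member's call changed. Depth limits Slamf1, Slamf8 and Cd48, with few reads or none in most libraries.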
